A study of Mus musculus with 3 samples.

Results

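The genes described here are 10 genes of glucose uptake and glycolysis in adult mouse cardiomyocytes (ACMs), the contracting muscle cells of the heart. They are the transporter genes Slc2a1 and Slc2a4, the hexokinase genes Hk1 and Hk2, the phosphofructokinase genes Pfkm and Pfkp, Pfkfb2 and Pfkfb3, whose enzymes make and remove the activator of phosphofructokinase, the pyruvate kinase gene Pkm, and the lactate dehydrogenase gene Ldha. They were taken by gene symbol from a table of 56748 genes, and each of the 10 symbols was found. Wild-type (WT) ACMs were isolated from hearts of mice aged 8 to 10 weeks, both sexes being used in the study, and were cultured for 16 h with vehicle, with 10 ng/mL human interleukin-6 (IL-6) or with 10 ng/mL mouse oncostatin M (OSM). Medium in all 3 conditions was serum-free M199 with 0.1% BSA, insulin-transferrin-selenium, a lipid supplement and 10 mM 2,3-butanedione monoxime, which blocks contraction. RNA was pooled before sequencing, and each condition is 1 library, so there is no replicate spread, no test across replicates could be made, and every difference given below is one between libraries.

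Glucose enters heart cells through transporters of the SLC2 (GLUT) family, is trapped by hexokinase as glucose phosphate, and is committed to glycolysis by phosphofructokinase. PFKFB enzymes hold a kinase and a phosphatase that set the level of a sugar bisphosphate which activates phosphofructokinase. Pyruvate kinase closes the pathway, and lactate dehydrogenase interconverts its product, pyruvate, and lactate. The adult heart burns mainly fatty acids, with glucose as its second fuel, and OSM and IL-6 are cytokines that signal through the shared receptor gp130 to JAK kinases and STAT3.

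With OSM, Slc2a1 and Pfkfb3 were called higher than with vehicle and Pfkfb2 was called lower, while the remaining 7 genes lay within 2-fold of vehicle. With IL-6, 0 of the 10 genes were called. A gene was called when the whole 95% counting interval (Clopper-Pearson) of its ratio lay beyond 2-fold. Ratios are those of counts scaled by TMM (trimmed mean of M values) factors, intervals cover counting error only, and genes with at least 10 counts over both libraries were compared. All 10 genes passed that minimum in each of the 3 comparisons. For OSM against vehicle, 2 of 10 were called higher, where 3.74% of all 15537 compared genes were, and 1 of 10 was called lower, where 5.43% of all compared genes were. For IL-6 against vehicle, 0 were called higher and 0 lower, with 1.77% and 1.74% of 15472 genes called in these directions. For OSM against IL-6, 2 were called higher and 1 lower, with 4.24% and 5.42% of 15544 genes called. The comparisons share libraries and are not independent of each other, and the 10 genes were chosen with earlier results known, so that their share is a description.

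Levels across genes are given as the deposited FPKM, which divide by the deposited gene length. That length departs from the canonical transcript in both directions. It is 3310 against 1588 bases for Ldha, 8532 against 4280 for Hk1 and 3506 against 4445 for Slc2a1. The order of genes and the family shares given here therefore hold for the deposited lengths only. Pkm stood first among the 10 genes with vehicle at 289 FPKM, followed by Ldha at 176, Pfkm at 169, Hk2 at 60.8, Slc2a4 at 39.6, Slc2a1 at 28.0, Hk1 at 24.8, Pfkp at 5.74, Pfkfb2 at 3.44 and Pfkfb3 at 0.716 FPKM. Neighbours in this order had Poisson intervals of their counts that did not overlap, but spread between cultures is not known. The order of near neighbours such as Ldha and Pfkm (intervals of 174 to 179 and 166 to 172 FPKM) rests on counting error and on the deposited lengths. With IL-6 Pfkm, at 178 FPKM, came before Ldha, at 173, and their intervals overlapped. In the OSM library Slc2a1 stood at place 4 of the 10, ahead of Hk2 and Slc2a4, against place 6 with vehicle, and Pfkfb3 came before Pfkfb2.

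**Figure D1:**
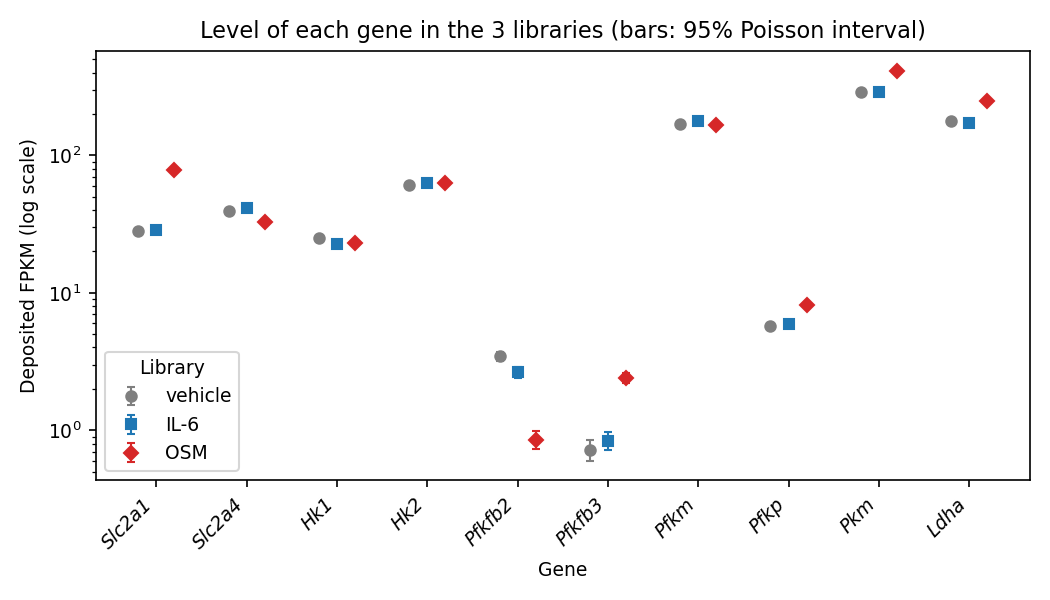
Deposited FPKM (log axis) of the 10 genes in the vehicle, IL-6 and OSM libraries, 1 point per library, with the 95% Poisson interval of the count as a bar where it is wider than the symbol. The OSM point of Slc2a1 (77.6 FPKM) and Pfkfb3 (2.40 FPKM) stands above the other libraries, that of Pfkfb2 (0.854 FPKM) stands below them, and the IL-6 points lie near those of vehicle.

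Among sequence features, the 250 bases before the annotated starts were searched in RefSeq promoters (a table of build GRCm38.p6) for ACGTG, the core letters of the hypoxia response element, and for TTCNNNGAA, the core of a STAT binding site. Both strands were read, so that the reverse complement CACGT counts too. The E-box CACGTG, bound by Myc family and other factors, holds the same letters on each strand. Entries were found for 9 of the 10 genes, all except Slc2a4, and gave 18 start sites. ACGTG stood in 10 of these 18 (55.6%), belonging to 7 genes, against 16.6% of all 32851 promoters of the table and 23.0% of the promoters with at least 60% G and C. The 18 were not limited in G and C, which ran from 36.4% (Pfkm start site 1) to 69.6% (Hk2). The 23.0% is thus of an unlike set. TTCNNNGAA stood in 1 of the 18, a start site of Pfkm, against 7.02% of all promoters. A match is only a description of the letters, not a binding site, and several start sites belong to 1 gene.

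Printed below are the stretches around ACGTG for the genes called with OSM, and for Hk2 and Ldha, which hold separate copies before the same start site and were not called. Matches of Pfkm (start sites 1 and 2) and Pkm (start site 2), genes also not called, are not printed. Each has 12 bases on either side of the match and is written 5′ to 3′ on the strand of the gene, with the match in capitals, joined where the letters read on both strands overlap. Coordinates are those of GRCm39, in which each promoter was found at 1 place on its chromosome.
Slc2a1, chr4:118965894-118965922, plus strand: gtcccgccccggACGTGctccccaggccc
Pfkfb3 (start site 1), chr2:11558784-11558812, minus strand: ctccgcgccgtgACGTGccaagctgtgac
Pfkfb3 (start site 2), chr2:11506937-11506966, minus strand: cacccttctctcCACGTGaaagggggctgg
Pfkfb2 (start site 1), chr1:130643563-130643592, minus strand: ggccaagcgcccCACGTGactcgccccaac
Pfkfb2 (start site 3), chr1:130642469-130642497, minus strand: gtgcagctgtatACGTGaggagtcaggtt
Hk2 (far match), chr6:82751645-82751673, minus strand: agccacggaacaCACGTcccaactctggc
Hk2 (near match), chr6:82751471-82751499, minus strand: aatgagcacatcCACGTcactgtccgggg
Ldha (far match), chr7:46495071-46495100, plus strand: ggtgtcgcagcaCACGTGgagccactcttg
Ldha (middle match), chr7:46495168-46495197, plus strand: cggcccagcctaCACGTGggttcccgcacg
Ldha (near match), chr7:46495182-46495210, plus strand: cgtgggttcccgCACGTccgctgggctcc

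The match of Slc2a1 began 36 bases before its RefSeq start, those of Pfkfb3 began 60 and 53 bases before its start sites, and those of Pfkfb2 began 22 and 172 bases before. For Hk2 the matches began 226 and 52 bases before the start, and for Ldha they began 145, 48 and 34 bases before, the middle and near windows overlapping. In the GENCODE M39 annotation the windows of Hk2 and the far one of Ldha hold no exon base, that of Slc2a1 holds 15 exon bases, and those of Pfkfb2, Pfkfb3 and the middle and near ones of Ldha lie wholly within annotated exons. The same letters thus stood before the start sites of a gene called lower (Pfkfb2), of genes called higher (Slc2a1 and Pfkfb3) and of genes within 2-fold (Hk2, Ldha, Pfkm and Pkm).

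Slc2a1 encodes GLUT1, the transporter for basal, insulin-independent glucose uptake, and lies on the plus strand (ENSMUSG00000028645, chr4:118965908-118995180, GRCm39, with 10 exons in its canonical GENCODE transcript). It had 2487 counts with vehicle, 2709 with IL-6 and 8125 with OSM, or 28.0, 28.5 and 77.6 FPKM. The OSM library was high and the others were close to each other. The TMM-scaled level with OSM was 2.76-fold that with vehicle (log2 ratio 1.47, interval 1.40 to 1.53) and 2.72-fold that with IL-6 (log2 1.44, interval 1.38 to 1.51), and 972 of the compared genes had a larger log2 ratio of OSM to vehicle. Under every scaling alternative the log2 ratio to vehicle was 1.40 or more. With IL-6 it was 0.02 (interval -0.06 to 0.10).

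Slc2a4 encodes GLUT4, the transporter that insulin and contraction bring to the surface of muscle cells (ENSMUSG00000018566, chr11:69833365-69839014, minus strand, 11 exons). Its counts were 3480 with vehicle, 3890 with IL-6 and 3387 with OSM, or 39.6, 41.3 and 32.6 FPKM. OSM was the low library, at 0.823 of the TMM-scaled vehicle level (log2 ratio -0.28, interval -0.35 to -0.21), and the gene was not called. Set against each other within each library, Slc2a1 had 0.709 of the FPKM of Slc2a4 with vehicle, 0.691 with IL-6 and 2.38 times it with OSM, so the order of the transporters turned round in the OSM library. This shift of 1.75 on the log2 scale (95% Wald counting interval 1.65 to 1.84) does not depend on any scaling factor. The deposited lengths are nearly the same, 3506 and 3478 bases, but the canonical transcripts have 4445 and 2610 bases. The sizes of the FPKM ratios therefore depend on the length used, while the shift, which is one of counts, does not.

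Within the SLC2 family as a whole, summed FPKM were 74.3 with vehicle, 76.6 with IL-6 and 116 with OSM. Slc2a1 made up 37.7%, 37.2% and 66.7% of these sums and Slc2a4 53.2%, 53.9% and 28.0%. Of the other 10 family members, 7 were compared for OSM against vehicle, 0 of which were called higher and 1 lower, with a median log2 ratio of -1.51 beside 0.00 over all compared genes. That median is the value of a single gene, Slc2a12, and all of the 7 except Slc2a8 had few counts. Of the 7, 2 had an interval above 0 and 4 had one below. The gene called lower was Slc2a2, the GLUT2 transporter of liver and pancreatic islets, with 38 counts with vehicle, 35 with IL-6 and 3 with OSM (log2 ratio to vehicle -3.90, interval -6.24 to -2.25). Slc2a8, the best expressed of these, had 402, 460 and 493 counts and a log2 ratio of 0.05 (interval -0.14 to 0.25) that took either sign over the scaling alternatives, and Slc2a12 had 106, 79 and 44 counts and a log2 ratio of -1.51 (interval -2.05 to -0.99), just short of the call. Against IL-6 the OSM library was also called for genes of few counts, lower for Slc2a6 (22 counts with IL-6, 3 with OSM) and higher for Slc2a9 (0 counts with IL-6, 24 with OSM, at least 7.25-fold higher when the empty library is set to 3 counts). Members also stood higher with OSM than with vehicle without being called, Slc2a3, the GLUT3 transporter of neurons, with 31, 48 and 100 counts (log2 ratio 1.45, interval 0.85 to 2.08) and Slc2a9 with 4, 0 and 24 counts (log2 ratio 2.34, interval 0.80 to 4.33). In the comparison with IL-6, 1 of 7 was called higher and 2 lower, with a median of -0.99, and with IL-6 against vehicle 0 of 8 were called in either direction, with a median of -0.06.

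Hk1 and Hk2 encode the hexokinases that trap glucose in the cell, both of which can bind to mitochondria. Hk1 (ENSMUSG00000037012, chr10:62104634-62215687, minus strand, 18 exons) had 5357 counts with vehicle, 5189 with IL-6 and 5890 with OSM, or 24.8, 22.4 and 23.1 FPKM. Hk2 (ENSMUSG00000000628, chr6:82702006-82751435, minus strand, 18 exons), the insulin-regulated form of muscle and heart, had 9175, 10135 and 11257 counts, or 60.8, 62.7 and 63.1 FPKM. Neither gene stood apart in any library. The log2 ratio of OSM to vehicle was -0.10 (interval -0.16 to -0.05) for Hk1 and 0.05 (interval 0.01 to 0.09) for Hk2, and that of Hk2 crossed 0 under the scaling alternatives (-0.01 to 0.08). Hk2 made up 70.5%, 72.4% and 71.8% of the summed hexokinase FPKM, and its shift against Hk1 was 0.16 (interval 0.09 to 0.22) for OSM against vehicle. That shift turned to -0.057 once the trend with gene length described below was taken off, and was -0.031 against the IL-6 library, with an interval of -0.10 to 0.03 that spans 0.

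Pfkm encodes the muscle form of phosphofructokinase, the committed step of glycolysis, and Pfkp the platelet form. Pfkm (ENSMUSG00000033065, chr15:97990470-98030332, plus strand, 23 exons) had 14298 counts with vehicle, 16075 with IL-6 and 16591 with OSM, or 169, 178 and 166 FPKM. It made up 90.5%, 90.9% and 88.9% of the phosphofructokinase FPKM. Its log2 ratio of OSM to vehicle was -0.03 (interval -0.06 to 0.01), which ran from -0.09 to 0.00 over the scaling alternatives. Pfkp (ENSMUSG00000021196, chr13:6629804-6698813, minus strand, 22 exons) had 1947, 2144 and 3269 counts, or 5.74, 5.90 and 8.17 FPKM, so OSM was the high library. Its level with OSM was 1.42-fold that with vehicle (log2 ratio 0.51, interval 0.42 to 0.59), short of the call, and its shift against Pfkm was 0.53 (interval 0.45 to 0.62). Pfkl, the liver form, had 2013, 2140 and 2491 counts and a log2 ratio of 0.07, and the summed FPKM of the family were 187, 195 and 187.

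Pfkfb2 and Pfkfb3 encode enzymes that control phosphofructokinase through its activator. PFKFB2 is the form typical of heart, activated there by insulin signaling, and PFKFB3 is an inducible form with high kinase activity. Pfkfb3 (ENSMUSG00000026773, chr2:11476244-11558888, minus strand, 16 exons) had 137 counts with vehicle, 171 with IL-6 and 543 with OSM, or 0.716, 0.835 and 2.40 FPKM. OSM was the high library, at 3.35-fold the vehicle level (log2 ratio 1.75, interval 1.47 to 2.03) and 2.88-fold the IL-6 level (log2 1.53, interval 1.27 to 1.78). With IL-6 its log2 ratio to vehicle was 0.22 (interval -0.11 to 0.55), which reached across 0 at this depth.

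Pfkfb2 (ENSMUSG00000026409, chr1:130616919-130656990, minus strand, 15 exons) went the other way, with 631 counts with vehicle, 518 with IL-6 and 185 with OSM, or 3.44, 2.64 and 0.854 FPKM. OSM was the low library. The log2 ratio of OSM to vehicle was -2.01 (interval -2.26 to -1.77), 4.03-fold lower, and 638 of the compared genes had a smaller one. Against IL-6 it was -1.63 (interval -1.88 to -1.38), and for IL-6 against vehicle -0.38 (interval -0.55 to -0.21), 1.31-fold lower and not called. Within the libraries, Pfkfb3 had 0.208 of the FPKM of Pfkfb2 with vehicle, 0.317 with IL-6 and 2.82 times it with OSM, a shift of 3.76 on the log2 scale between OSM and vehicle (interval 3.40 to 4.12) and of 0.60 between IL-6 and vehicle (interval 0.24 to 0.97).

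The summed FPKM of the PFKFB genes stood at 5.50 with vehicle, 4.75 with IL-6 and 4.98 with OSM, so that the makeup of the family differed between libraries more than its sum. Pfkfb2 made up 62.6%, 55.5% and 17.2% of it, Pfkfb3 13.0%, 17.6% and 48.3%, and Pfkfb4, which is most abundant in testis, 17.3%, 23.6% and 28.8%. Pfkfb4 had 117, 148 and 209 counts, with a log2 ratio of OSM to vehicle of 0.60 (interval 0.26 to 0.93). Counts of Pfkfb2 and Pfkfb3 were the smallest of the 10 genes, and their intervals the widest.

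**Figure D2:**
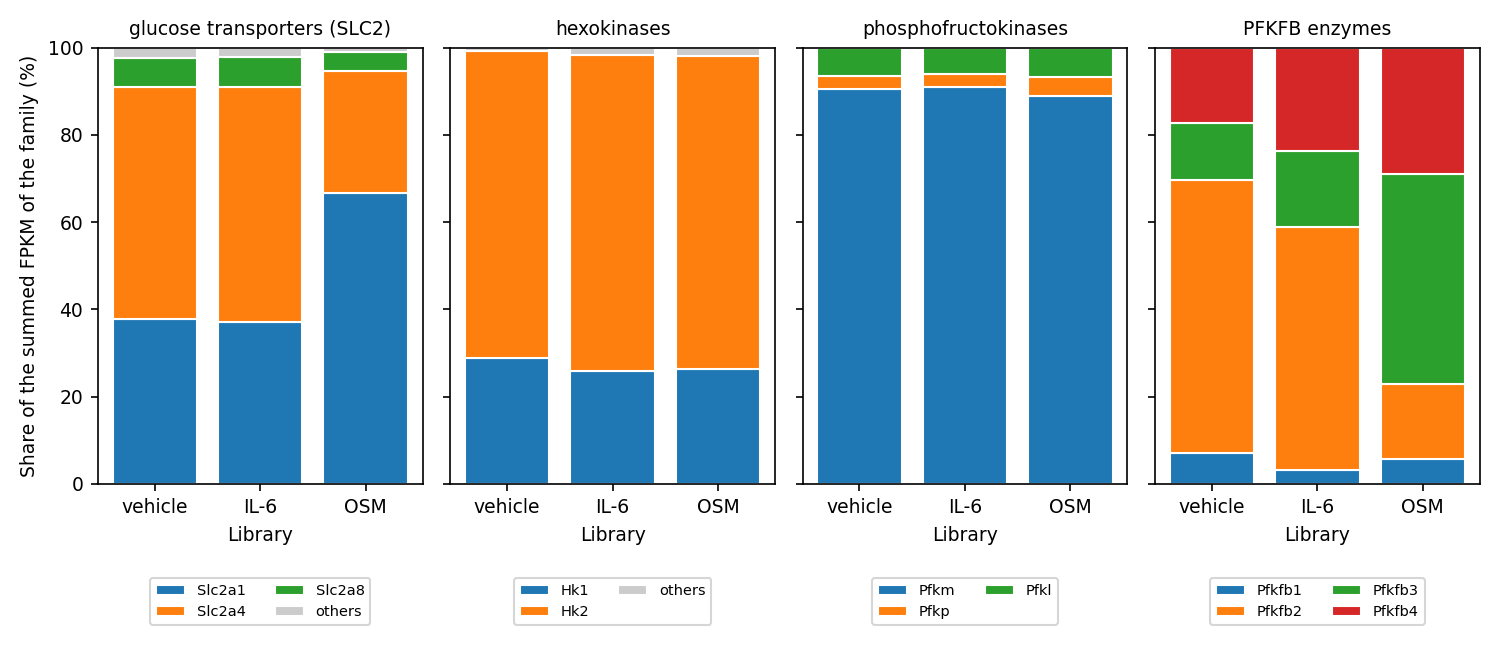
Share (%) of each gene in the summed FPKM of its family, as stacked bars for the vehicle, IL-6 and OSM libraries, with genes under 3% in every library joined as others. In the OSM bars Slc2a1 makes up 66.7% of the transporters and Pfkfb3 48.3% of the PFKFB enzymes, while the hexokinases and phosphofructokinases keep nearly the same makeup in the 3 libraries.

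Pkm encodes the pyruvate kinase of muscle and most other tissues, whose splice forms gene counts do not separate (ENSMUSG00000032294, chr9:59563651-59586658, plus strand, 11 exons). Its counts were 36589 with vehicle, 39133 with IL-6 and 61549 with OSM, or 289, 289 and 412 FPKM. OSM was the high library at 1.42-fold the vehicle level (log2 ratio 0.51, interval 0.49 to 0.53), below the 2-fold limit, and the IL-6 ratio was 0.00 (interval -0.02 to 0.02). Ldha, which encodes the lactate dehydrogenase subunit typical of skeletal muscle (ENSMUSG00000063229, chr7:46490899-46505051, plus strand, 8 exons), had 14777, 15496 and 24475 counts, or 176, 173 and 248 FPKM. Its log2 ratio of OSM to vehicle was 0.49 (interval 0.46 to 0.52), 1.40-fold, and that of IL-6 to vehicle was -0.03 (interval -0.06 to 0.00).

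Ldhb, the subunit typical of heart, had 28201 counts with vehicle, 31440 with IL-6 and 44259 with OSM, and a log2 ratio of 0.41 (interval 0.39 to 0.43) for OSM against vehicle. Ldha therefore made up 19.9%, 18.9% and 20.8% of the lactate dehydrogenase FPKM, and its shift against Ldhb was 0.08 (interval 0.04 to 0.11). Before any centring on gene length, both subunits stood higher with OSM by about the same factor, and neither was called. The deposited gene lengths differ (3310 and 1570 bases), while the canonical transcripts have 1588 and 1529 bases. Against genes of like deposited length, as described below, Ldha stood at 0.33 and Ldhb at -0.03, a shift of 0.36. That shift and the FPKM shares rest on the deposited lengths, and transcript lengths were not used for either.

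**Figure D3:**
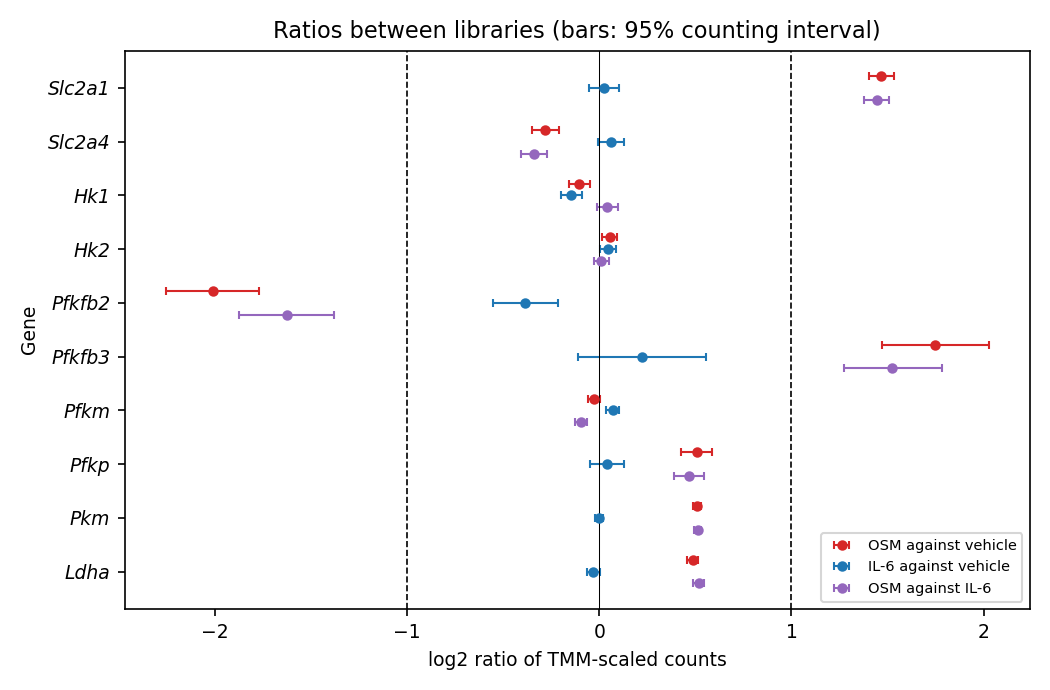
Log2 ratio of TMM-scaled counts of the 10 genes for OSM against vehicle, IL-6 against vehicle and OSM against IL-6, with the 95% counting interval as a bar and dashed lines at 2-fold. Intervals wholly beyond a line are those of Slc2a1 and Pfkfb3 on the higher side and Pfkfb2 on the lower side, in the OSM comparisons only among these 3.

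Beyond these genes, 17 of 25 other glycolytic enzymes were compared for OSM against vehicle, with 1 called higher and 0 lower and a median log2 ratio of 0.37, beside 0.00 over all genes. Aldoa, the muscle aldolase, had 66414 counts with vehicle, 73789 with IL-6 and 101821 with OSM and a log2 ratio of 0.37. Of the 17 enzymes, 11 had an interval above 0 and 0 had one below. With the trend in gene length taken off, their median was 0.12. With IL-6, 1 of 18 was called higher than with vehicle (Eno2, the neuronal enolase, 18 counts with vehicle and 69 with IL-6) and 0 lower, with a median of 0.05, and for OSM against IL-6 1 of 18 was called higher, Gapdh, whose counts are treated below, and 0 lower, with a median of 0.29.

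By step, the early part of the pathway after uptake differed little between the OSM and vehicle libraries, the ratio of summed FPKM being 1.02 for hexokinases, 1.02 for phosphoglucose isomerase and 1.00 for phosphofructokinases. From aldolase on it was 1.30 for aldolases, 1.19 for triosephosphate isomerase, 1.23 for phosphoglycerate kinases, 1.32 for phosphoglycerate mutases, 1.45 for enolases, 1.42 for pyruvate kinase and 1.34 for lactate dehydrogenases. At the transporter it was 1.57. These ratios are of FPKM and have no replicate error. Genes of the steps differ in deposited length, Hk1, Hk2 and Gpi1 having 8532, 5969 and 6452 bases and Aldoa, Pgam2 and Eno3 having 2911, 840 and 1739. Their canonical transcripts have 4280, 7796 and 2903 bases for the early genes and 1511, 870 and 1741 for the later ones. The values that follow use the deposited lengths. Taken against genes of like length, as described below, the log2 ratio was 0.20 for Hk1, 0.14 for Hk2, 0.12 for Gpi1 and -0.19 for Pfkm, and for the later steps 0.12 for Aldoa, -0.01 for Tpi1, 0.00 for Pgk1, -0.14 for Pgam2, 0.13 for Eno3 and -0.03 for Ldhb. On that scale these early genes lay between -0.19 and 0.20 and these later ones between -0.14 and 0.13, with Pfkp at 1.09 and Pfkl at 0.22 among the early genes and Eno1 at 0.48, Pkm at 0.54 and Ldha at 0.33 among the later ones standing above.

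**Figure D4:**
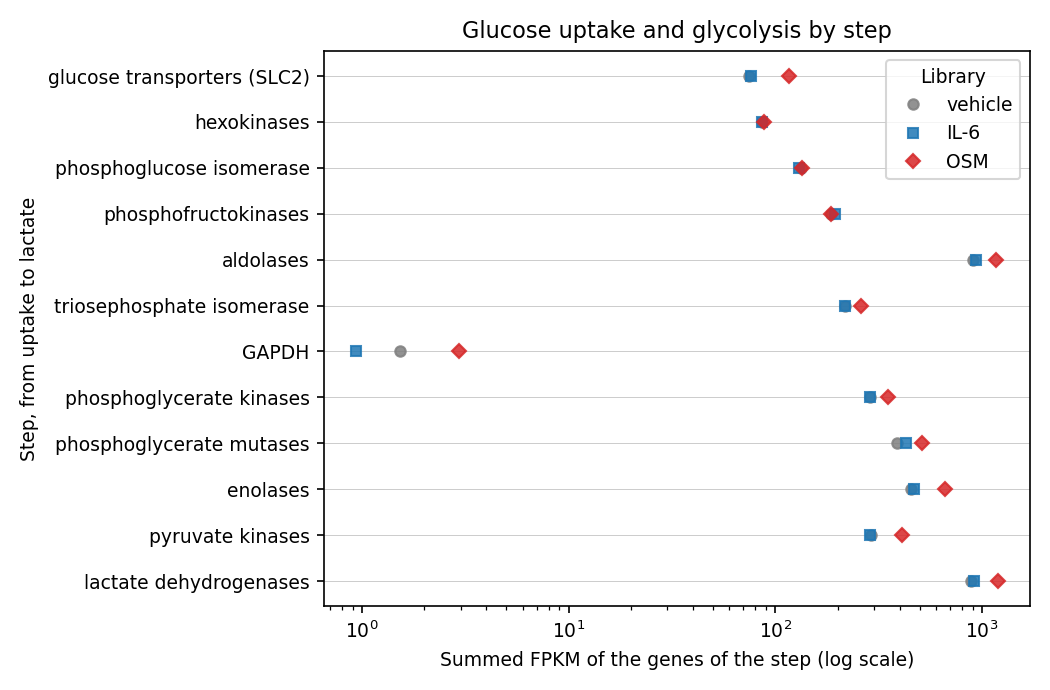
Summed FPKM (log axis) of the genes of each step from glucose uptake to lactate, 1 point per library. The OSM point lies to the right of vehicle at uptake (116 against 74.3 FPKM) and from aldolase on, and nearly on it for hexokinases, phosphoglucose isomerase and phosphofructokinases, while GAPDH, whose transcript is 88.2% copied elsewhere in the genome, stands far below every other step.

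Gapdh, a glycolytic enzyme of high abundance in nearly all cells, was listed with only 147 counts with vehicle, 105 with IL-6 and 357 with OSM. In GRCm39, 88.2% of its canonical transcript has copies elsewhere at 99% identity or more, and copies at 90% or more stand at 132 places, so that reads counted for it are uncertain and its values are given as listed. Among the 10 genes, 8 have no stretch copied at 90% identity. For Pkm 90.8% of the transcript has a copy at 97% identity and for Ldha 98.6% at 90% but 0% at 97%. Counts of a copy of Pkm, the pseudogene Gm6560, were 257, 289 and 403, small beside those of Pkm. Copies at 97% identity also cover 82.8% of the transcript of Ldhb, 95.7% of Pgk1, 96.4% of Pgam1, 75.7% of Eno1, 54.0% of Tpi1 and 45.7% of Gpi1, so that these enter the family and step sums with the same reserve.

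Fates of pyruvate and lactate were covered by 15 genes (monocarboxylate and pyruvate carriers, pyruvate dehydrogenase and its kinases and phosphatases). All 15 were compared for OSM against vehicle, with 0 called higher, 0 lower and a median log2 ratio of -0.13. Pdha1, the catalytic subunit gene of pyruvate dehydrogenase, had 23900 counts with vehicle, 25556 with IL-6 and 21294 with OSM (log2 ratio -0.41), and Pdhb 21628, 23737 and 25684 (log2 ratio 0.01, which took either sign across the scaling alternatives). The calls in the other comparisons were also 0 and 0, with medians of -0.01 (IL-6 to vehicle) and -0.08 (OSM to IL-6).

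Glycogen metabolism had 16 of 17 genes compared, of which 0 were called higher and 1 lower with OSM, with a median log2 ratio of -0.24. The lower gene was Ppp1r3a, the muscle subunit that brings protein phosphatase to glycogen, with 3451 counts with vehicle, 3140 with IL-6 and 997 with OSM (log2 ratio -2.03, interval -2.14 to -1.93). Pygm, the muscle glycogen phosphorylase, had 32820, 36798 and 34879 counts (log2 ratio -0.15), and Pygb, the brain form, 21864, 24027 and 15813 (log2 ratio -0.71). Against IL-6 the calls were 0 higher and 1 lower, again Ppp1r3a, with a median of -0.27. Between IL-6 and vehicle they were 0 and 0, with a median of -0.01.

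Genes of glucose sensing and transporter trafficking gave 10 of 11 compared, with 1 higher and 1 lower with OSM and a median log2 ratio of -0.56. Arrdc4, an arrestin-like gene switched on by glucose, had 1072 counts with vehicle, 1009 with IL-6 and 3065 with OSM (log2 ratio 1.27, interval 1.17 to 1.38). Its relative Txnip, which restrains glucose uptake, had 9732, 10066 and 14780 (log2 ratio 0.36). Lnpep, the aminopeptidase that travels with GLUT4 in its storage vesicles, had 3891, 3858 and 1476 counts (log2 ratio -1.64, interval -1.73 to -1.55). Tigar, a phosphatase that removes the activator made by PFKFB enzymes, had 1942, 2204 and 2762 (log2 ratio 0.27). Against IL-6 the calls were also 1 higher (Arrdc4) and 1 lower (Lnpep), with a median of -0.39, and for IL-6 against vehicle 0 and 0, with a median of -0.03.

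The ratio of OSM to vehicle moved with the deposited gene length. The median log2 ratio of the 500 protein-coding genes nearest in length (mean of at least 100 counts) was 0.16 at the length of Ldha (3310 bases), -0.03 at that of Pkm (5001 bases), -0.22 at that of Pfkfb3 (7561 bases) and -0.59 at that of Pfkp (13401 bases). For IL-6 against vehicle the same medians lay between -0.03 and 0.01. Taken against genes of like length, the log2 ratio of OSM to vehicle was 1.34 for Slc2a1, 1.97 for Pfkfb3, -1.80 for Pfkfb2, 1.09 for Pfkp, 0.54 for Pkm, 0.33 for Ldha, 0.20 for Hk1, 0.14 for Hk2, -0.19 for Pfkm and -0.41 for Slc2a4. Pfkp, the longest of the 10 by deposited length, then passed the call and Hk1 changed sign, while Slc2a1, Pfkfb3 and Pfkfb2 kept theirs. The canonical transcripts of Pfkp and Hk1 have 4308 and 4280 bases, beside deposited lengths of 13401 and 8532. Both changes were thus found with deposited lengths only, and centring on transcript length was not run. Of the other genes named here as called for OSM against vehicle, Lnpep (-0.99) was no longer called. Among the markers given below, Ryr2 (-0.75) and Cd68 (1.14, with an interval reaching inside 2-fold) were no longer called either. Genes not called before also crossed the limit. Slc2a12 (-1.56) was then called lower, as it was with total counts. Slc2a3 (1.66) and the marker Cspg4 (1.59) then had intervals wholly above 2-fold.

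**Figure D5:**
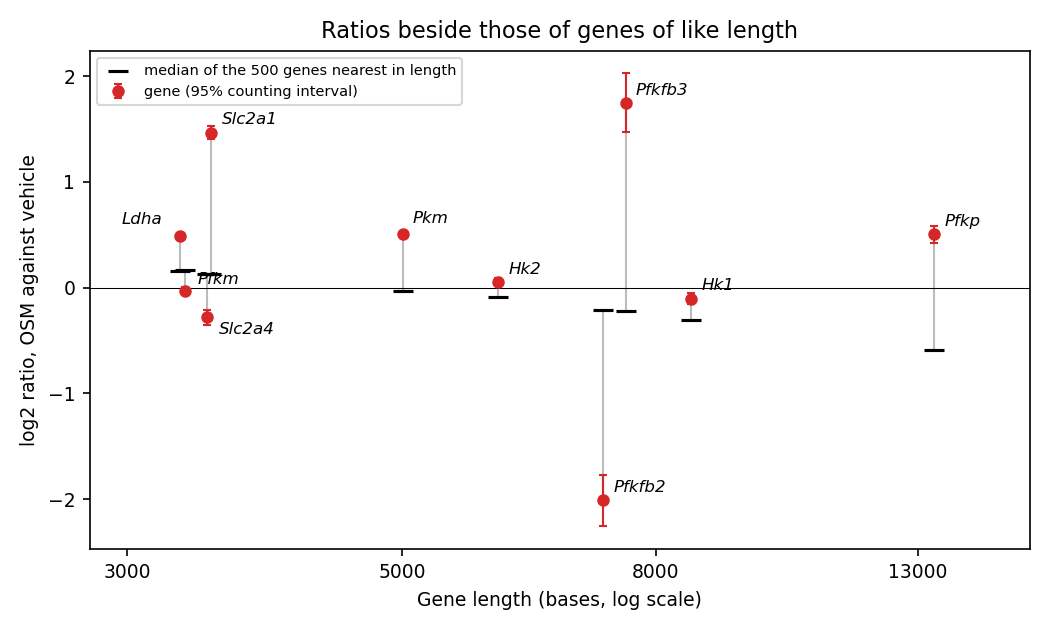
Log2 ratio of OSM to vehicle against gene length (bases, log axis) for the 10 genes, with the 95% counting interval as a bar, and, as dashes joined to each point, the median of the 500 protein-coding genes nearest in length. The dashes go from 0.16 at the length of Ldha down to -0.59 at that of Pfkp, and Slc2a1, Pfkfb3 and Pfkfb2 stand far from theirs.

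Some of the genes overlap others on the opposite strand, and whether the counting used strand is not given in the sources used here, so reads of such pairs cannot be assigned with certainty. Pitrm1, which overlaps Pfkp, had 2125 counts with vehicle, 2292 with IL-6 and 2222 with OSM, near those of Pfkp. Yod1, which overlaps Pfkfb2, had 172, 159 and 170 counts, and Ybx2, which overlaps Slc2a4, had 206, 223 and 386. Gm12868, opposite Slc2a1, had 0, 9 and 17 counts, far below the difference in Slc2a1. Hk2 and Pfkfb3 overlap no annotated gene.

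The libraries held 24939980 counts with vehicle, 26362446 with IL-6 and 30773001 with OSM, of which mitochondrial transcripts took 17.4%, 16.1% and 13.6%. Cardiomyocyte markers summed to 10739, 11141 and 14603 FPKM, and 1 of the 9, Ryr2, was called lower with OSM (log2 ratio to vehicle -1.53). Ryr2 is a long gene (28790 bases), and against genes of like length it stood at -0.75, short of the call. Slc2a1 is also a gene of endothelium, and the 6 endothelial markers summed to 6.61, 6.68 and 7.04 FPKM, with 0 called. The 5 red cell markers summed to 0.351, 0.945 and 1.25 FPKM, with Hbb-bt at 0 in all libraries. The 6 macrophage markers summed to 13.4, 14.3 and 39.1 FPKM, nearly all of it Cd68 (382, 448 and 1419 counts), which was called higher with OSM, while C1qa and Ptprc were at 0. Against genes of like length, Cd68 stood at a log2 ratio to vehicle of 1.14, and its interval no longer lay wholly beyond 2-fold. Fibroblast markers (6) summed to 0.782, 0.674 and 1.03 FPKM, with 0 called against vehicle. Against IL-6, 1 was called lower with OSM, Col1a2 (14, 41 and 6 counts). Dcn had 49, 48 and 131 counts (log2 ratio to vehicle 1.18, not called). Smooth muscle and pericyte markers (6) summed to 13.4, 13.6 and 15.8 FPKM, with Cspg4 at 111, 219 and 290 counts (log2 ratio to vehicle 1.14, not called). Neutrophil markers (5, with S100a9, Ly6g and Csf3r at 0) summed to 0.166, 0 and 0.0965 FPKM. Of 5 adipocyte markers Adipoq, Cfd and Lep were at 0, and Fabp4 at 1.10, 1.02 and 1.48 FPKM gave nearly all of the sum. Xist, the RNA of the inactive X chromosome, had 753, 725 and 279 counts, and Y-linked genes together 3624, 4404 and 3547. The part of these differences in the values of the 10 genes was not tested. In pooled RNA of this kind, fewer cells of a type and less RNA per cell cannot be told apart.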

How the data were processed

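RNA of cultured ACMs was pooled per condition, and poly(A) libraries were sequenced as paired reads on an Illumina NovaSeq. The submitters' processing notes name fastp, HISAT2 2.2.1, featureCounts 2.0.6, edgeR 4.0.16 and mm39 (GRCm39); the paper's methods name other versions of featureCounts and edgeR. The authors deposited whole-number read counts per gene, not normalized, and FPKM, which equal the count divided by gene length and by a constant per library (25296726, 27098375 and 29867031 in the order vehicle, IL-6, OSM). Gene positions and lengths are those of the deposited table.

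Counts were scaled with pairwise TMM factors (edgeR 4.0.16, R 4.3.3). The log2 ratio was given with the 95% Clopper-Pearson interval of the pair of counts given their sum, where the pair held at least 10 counts, and called when the whole interval lay beyond 2-fold. A library at 0 counts was set to a floor of 3 counts. At these depths 3 counts are 0.120 CPM with vehicle, 0.114 with IL-6 and 0.0975 with OSM. With 1 library per condition no test was run. Shifts between genes of a family are differences of log2 ratios with a Wald interval from the counts. The calling was tested on simulated Poisson counts with planted changes. These hold no spread between cultures and no trend with gene length, so the simulation cannot speak to either.

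Exons and overlaps were read from GENCODE M39, and copies were found by aligning canonical transcripts to GRCm39 with minimap2 2.31-r1302. Alternatives were DESeq2 1.42.0 size factors, total counts, upper quartile factors, TMM over the 3 libraries, FPKM ratios, other count minimums, other call rules and centring on gene length. The 10 genes, the gene lists and the marker lists were chosen with earlier results of these data known. Named genes are the 10 genes and, from each list, those called in any comparison and the 2 of highest vehicle FPKM, with Ldhb and Pfkl. Pfkfb4, overlapping genes, Gm6560, Ryr2, Cspg4, Col1a2, Dcn, Slc2a3, Gpi1, Tpi1, Pgk1, Pgam1, Pgam2, Eno1 and Eno3 were named after their values were seen. Aldoa stands on 2 identifiers, and the one with more counts was used. A glycolytic enzyme gene that the rule names is not reported here.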

Additional observations from a re-analysis of the deposited data

How the results depend on the processing

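Calls for the 10 genes were the same under DESeq2 size factors, total counts, upper quartile factors, TMM over the 3 libraries, FPKM ratios, no minimum count, at least 50 counts, a point estimate beyond 2-fold and an interval beyond 1.5-fold, in all 3 comparisons. With the interval required to lie beyond 4-fold, 0 of the 10 were called higher and 0 lower, in either comparison of OSM. Centred on the deposited gene length, Pfkp (1.09) was called higher for OSM against vehicle. The shift of Hk2 to Hk1 then reversed to -0.057, that of Pfkp to Pfkm became 1.28 and that of Ldha to Ldhb 0.36. Canonical transcripts of several of these genes differ in length from the deposited values, and centring on them was not run. Against IL-6 in place of vehicle, the shift of Hk2 to Hk1 was -0.031, with an interval (-0.10 to 0.03) that spans 0, that of Pfkfb3 to Pfkfb2 was 3.15 and that of Ldha to Ldhb 0.17. Over all genes, 581 were called higher and 844 lower for OSM against vehicle, against 382 and 502 with at least 50 counts, 1565 and 2034 by the point estimate, 127 and 129 at 4-fold and 1357 and 1850 at 1.5-fold. For IL-6 against vehicle the counts were 274 and 269, against 31 and 25, 1033 and 1025, 34 and 62, and 457 and 445. For OSM against IL-6 they were 659 and 843, against 386 and 479, 1557 and 1981, 151 and 124, and 1365 and 1854. The cause of these changes was not tested, other than the stricter or looser rule itself. Counts over all genes were not computed after centring on gene length. No paired analysis was possible because each condition has 1 library and no test was run, and no replicate could be left out. Among the 10 genes depth limits Pfkfb3 and Pfkfb2 most, with 137 to 631 counts, and among the others shown it limits Slc2a2, Slc2a6, Slc2a9 and Eno2 more, with under 100 counts in each library, and spread between cultures is unknown for all of them.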
